A study of Mus musculus with 18 samples.

Results

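Cultures of mouse 3T3-L1 cells labelled Day6 were compared with cultures labelled Day4. The aim was to describe the early maturation of newly formed fat cells and the decay of genes that rose after induction. The 3 Day6 and 3 Day4 libraries are 6 of the 18 in the series, and they were taken from the sample titles. The other 12 libraries are Control, MCE1, MCE2 and Day8, with 3 each. They are used here to define the induced genes, those higher at MCE1 and MCE2 than in Control, and to give levels beside the comparison. Without a group lacking hormones at a matched time, effects of hormones, division and differentiation cannot be told apart in that set. 3T3-L1 is an established mouse fibroblast line that turns into fat cells in culture, and polyadenylated RNA was sequenced from it.

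All induced cultures shared 1 protocol. Starting 2 days past confluence (day 0), the cells received 10 µg/ml insulin, 0.25 µM dexamethasone and 0.5 mM IBMX for 48 h. Medium with 5 µg/ml insulin followed and was renewed every 2 days. The labels do not settle whether the day numbers in the titles count from the start or the end of those 48 h. In both readings dexamethasone and IBMX had been removed before Day4, so Day6 and Day4 differ by time in insulin medium. Control cells were not yet induced. MCE1 and MCE2 are stages of mitotic clonal expansion, the divisions that induced cells pass through, with no hour given. The labels do not say whether the replicates were separate cultures, so every p-value below measures only the spread between these samples, which may be technical.

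Dexamethasone is a synthetic glucocorticoid that activates the glucocorticoid receptor, a transcription factor. IBMX blocks phosphodiesterases and so raises cAMP, and insulin drives glucose uptake and fat synthesis. In 3T3-L1 cells the hormones first induce the factors C/EBP beta and C/EBP delta, which in turn switch on Pparg and Cebpa, the factors that hold the fat cell program. Glucocorticoid targets such as Fkbp5 and Tsc22d3 are used as gauges of receptor activity.

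Values are TPM (transcript abundance scaled to a common total per library), as the authors deposited them, so the read depth is unknown and a gene's level is relative to the other RNA of its library. The test, with limma on log2(TPM + 1), covered the 11844 of 25209 listed genes with 1 TPM or more in 3 or more of the 6 libraries. A gene is called at a Benjamini-Hochberg adjusted p under 0.05. Fold changes are Day6 minus Day4 on that scale, with the SE of the fit, and they understate the changes of genes with few TPM. At Day6 1810 genes were higher (15.3% of those tested) and 1427 were lower (12%) than at Day4, together 27.3%. These shares over all genes tested are the background for the list counts below. Most of these changes were small: 247 of the higher and 113 of the lower genes changed by 1 log2 unit or more. The median over all genes tested was 0.016. In bulk RNA a higher share of differentiated cells and more RNA of a gene per cell cannot be told apart, and that holds for every change below. Pearson's r across genes, which are not independent replicates, was 0.982 to 0.985 within Day6, 0.978 to 0.985 within Day4 and 0.96 to 0.97 between the 2 groups.

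**Figure D1:**
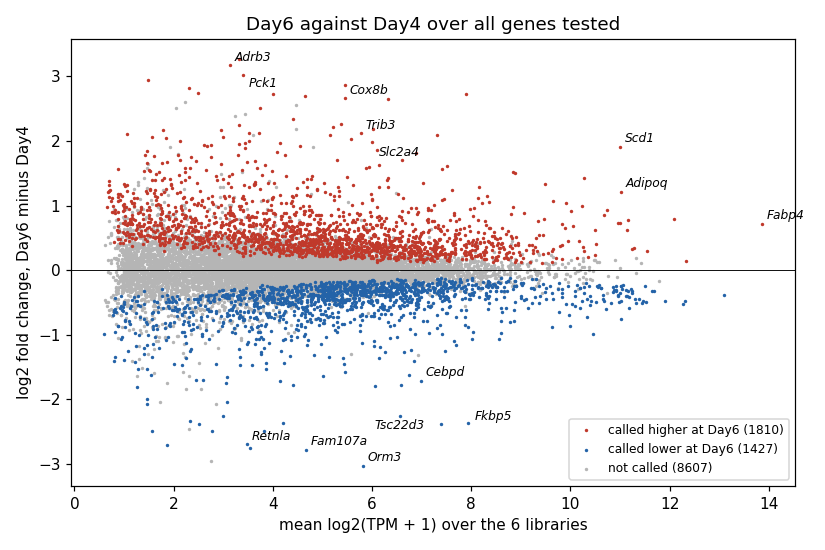
Each point is 1 of the 11844 genes tested, with the mean log2(TPM + 1) over the 6 libraries on the x axis and the log2 fold change, Day6 minus Day4, on the y axis. Red points are the 1810 genes called higher, blue points the 1427 called lower and grey points those not called, and the named genes are described in the text.

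Of the 6 genes that fell furthest, 5 were among the induced genes defined below. Over all 11844 genes tested 422 were induced genes, and of the 1427 called lower 116 were. A further 119 induced genes were called higher. Taken from called genes with separate ranges, a Day4 mean of 10 TPM or more and no provisional name, the 6 were Orm3, Fam107a, Saa3, Retnla, Ifi205 and Tent5b, the last of which was not an induced gene. Orm3 (chromosome 4, 63017196 to 63020545, mm9 build), an acute phase carrier protein of the orosomucoid family, read 15.8, 22.9 and 18.2 TPM at Day6 against 176, 151 and 154 TPM at Day4. As the choice required, all Day4 libraries stood above all Day6 libraries (log2 fold change -3.02, SE 0.18, adjusted p = 9.1e-09). Its means had been 0.662 TPM in Control, 40.4 TPM at MCE1 and 111 TPM at MCE2, and its Day8 libraries read 2.88, 4.51 and 5.37 TPM. Saa3 (chromosome 7, 53967368 to 53971046), a serum amyloid of the acute phase, read 3.76, 4.54 and 2.40 TPM at Day6 against 32.3, 27.8 and 27.9 TPM at Day4 (-2.76, SE 0.20, adjusted p = 6.7e-08). Retnla (chromosome 16, 48842722 to 48844574), a secreted protein of the resistin family, read 1.32, 4.49 and 5.74 TPM at Day6 against 32.0, 23.7 and 27.6 TPM at Day4 (-2.70, SE 0.27, adjusted p = 1.8e-06). Retnla was listed at 0 in every Day8 library. Orm3, Saa3 and Ifi205 belong to families of related copies. How the authors' quantification shared reads among copies is not stated, so the level of a single copy is uncertain. The relatives Orm1 (0.19) and Orm2 (-0.42), both induced genes and both picked after their values were seen, were not called. Tent5b, which lengthens poly(A) tails, read 1.81, 1.59 and 2.25 TPM at Day6 against 14.9 to 15.4 TPM at Day4 (-2.49, SE 0.16). Its Control mean was 14.4 TPM, close to Day4.

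Glucocorticoid responsive genes fell more often than they rose. Of 32 genes in that list 28 were tested: 13 were lower at Day6, 4 were higher and 11 were not called, with a median of -0.40. That is 46.4% lower, beside 12% over all genes tested. This list, like the others, was written with earlier results of these data known, so its share is a description. It leaves out Rasd1, described below, which rose. Fkbp5 (chromosome 17, 28535698 to 28623094), a co-chaperone that restrains the glucocorticoid receptor, read 91.3, 125 and 108 TPM at Day6 against 542, 553 and 576 TPM at Day4. All Day4 libraries stood far above all Day6 libraries (log2 fold change -2.37, SE 0.08, adjusted p = 6.9e-11). Tsc22d3, the glucocorticoid-induced leucine zipper that mediates anti-inflammatory effects, read 62.8, 80.1 and 76.8 TPM at Day6 against 375, 381 and 396 TPM at Day4 (-2.38, SE 0.12, adjusted p = 1.6e-09). Its recorded position differed between libraries, as did those of Slc2a4, Retn, Cd36 and Cidec, described below. Fam107a (chromosome 14, 9128784 to 9142291), an actin-binding protein, read 6.25, 10.9 and 9.75 TPM at Day6 against 53.0, 84.9 and 63.1 TPM at Day4 (-2.77, SE 0.18, adjusted p = 2.0e-08). For all 3 the Day6 and Day4 libraries did not overlap.

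For these 3 genes the Day4 mean was above the MCE1 mean, and the lower level was seen at Day6. Fkbp5 averaged 50.9 TPM in Control, 436 TPM at MCE1, 611 TPM at MCE2, 557 TPM at Day4, 108 TPM at Day6 and 38.1 TPM at Day8. Its Day6 mean was still above the Control mean, and its Day8 mean was below it. Tsc22d3 and Fam107a had their highest group mean at Day4, and for both the Day8 mean was still above that of Control. Fam107a was listed at 0 in every Control library. The 4 called members with the largest changes include 1 that went the other way: Tgm2, a transglutaminase that crosslinks proteins, read 19.9, 19.2 and 16.8 TPM at Day6 against 3.12, 4.97 and 4.20 TPM at Day4 (1.96, SE 0.13, adjusted p = 3.0e-08). Tgm2 averaged 0.738 TPM at MCE2 and was not among the induced genes. Pdk4, a kinase that shuts off pyruvate oxidation, read 9.74, 12.8 and 9.04 TPM at Day6 against 31.3, 28.8 and 29.7 TPM at Day4 (-1.44, SE 0.14).

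Not every member of the list declined. Lcn2 (chromosome 2, 32240157 to 32243259), the siderophore-binding protein lipocalin, read 308, 334 and 295 TPM at Day6 against 339, 389 and 347 TPM at Day4. It was not called (-0.20, SE 0.14, adjusted p = 0.32), and its Day8 libraries lay at 84.7, 119 and 114 TPM. Zbtb16, a zinc finger factor, read 11.7, 17.1 and 11.9 TPM at Day6 against 16.1, 13.1 and 14.6 TPM at Day4, with overlapping ranges and no call (-0.12, SE 0.16, adjusted p = 0.65). Of the 17 list members that were also induced at MCE1 and MCE2, 9 were lower, 1 was higher and 7 were not called. Of the 11 other members tested, 4 were lower and 3 were higher. Over all induced genes tested 27.5% were lower and 28.2% higher, and over all genes tested 12% and 15.3%. Outside the naming rule, and chosen after their values were seen, the metallothionein Mt1 (-0.98, SE 0.11), Ddit4, an inhibitor of mTOR signalling (-1.06, SE 0.07), and glutamine synthetase, Glul (-0.51, SE 0.06), also fell. Hsd11b1 (1.61), whose enzyme regenerates active glucocorticoid, and Klf15 (1.34), described with the transcription factors, are members that rose, the first of them also picked after its value was seen.

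**Figure D2:**
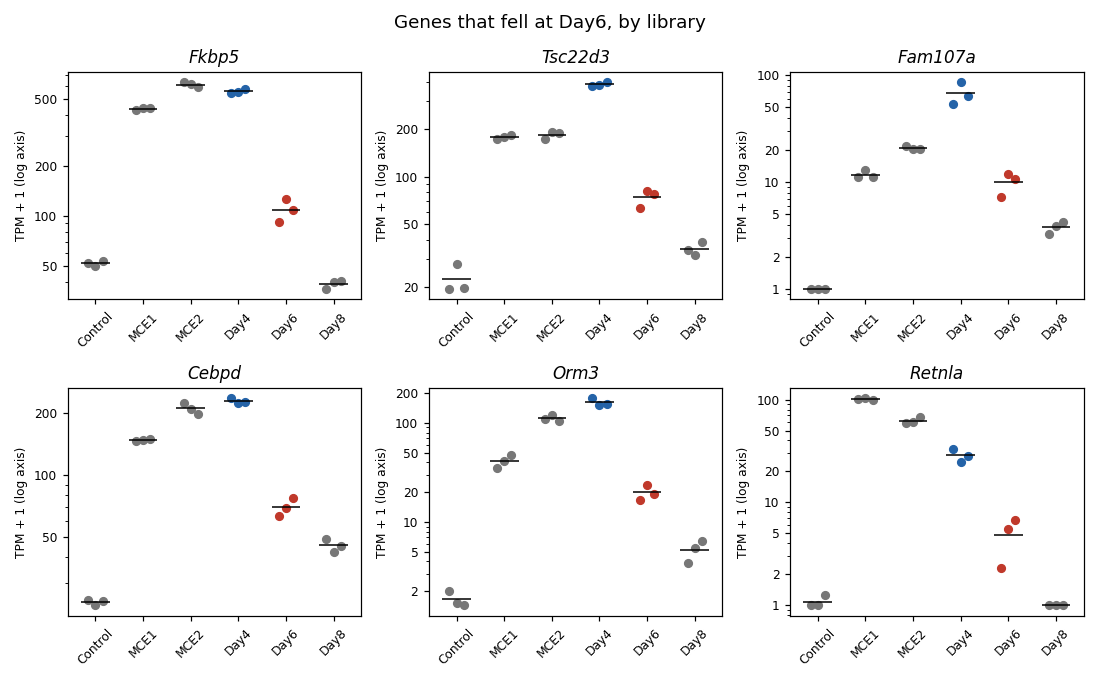
TPM + 1 on a log axis for 6 genes that fell at Day6, with the libraries grouped from Control on the left to Day8 on the right; each point is a library and each bar the mean of the 3. Day6 libraries are red and Day4 libraries blue: in all 6 genes the 3 red points lie below the 3 blue points, and Fkbp5 at Day6 reads 91.3 to 125 TPM against 542 to 576 TPM at Day4.

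The acute phase genes and the cAMP responsive genes, the other hormone-linked lists, were mixed. Of 20 acute phase and immune defence genes tested 6 were lower (30.0%), 4 were higher (20.0%) and 10 were not called (median -0.24). Besides Saa3 and Retnla, Saa2 fell (1.03, 0 and 1.10 TPM at Day6 against 4.42, 3.70 and 3.01 TPM at Day4), a call that was lost with a pseudocount of 0.1. Saa2 is of the same family as Saa3, so the level of a single copy is uncertain here too. Steap4, a metalloreductase of the fat cell, rose to 19.3, 21.9 and 18.3 TPM at Day6, against 8.23, 6.72 and 8.35 TPM at Day4 (1.25, SE 0.13). Of the 11 acute phase genes tested that were induced genes, 4 were lower and 0 were higher. Of the 9 others tested 2 were lower and 4 were higher. Over all genes tested 12% were lower and 15.3% higher, and over all induced genes tested 27.5% and 28.2%.

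Of 19 cAMP responsive genes tested 6 were higher, 5 were lower and 8 were not called (median 0.13), which is 31.6% higher and 26.3% lower beside 15.3% and 12% over all genes tested. Pde3b (chromosome 7, 121558768 to 121681451), the phosphodiesterase through which insulin lowers cAMP in fat cells, read 21.5, 23.7 and 19.6 TPM at Day6 against 6.17, 5.45 and 6.34 TPM at Day4, without overlap (1.69, SE 0.10, adjusted p = 1.1e-08). Its Day8 libraries read 40.0, 35.9 and 34.9 TPM. Nr4a1, an orphan nuclear receptor, averaged 49.0 TPM at Day6 against 28.6 TPM at Day4 (0.75, SE 0.08), and had averaged 89.0 TPM at MCE2. Crem, the cAMP response element modulator, had 1.98, 3.20 and 5.03 TPM at Day6 against 3.65, 3.69 and 2.54 TPM at Day4 and was not called (-0.01, SE 0.26, adjusted p = 0.98).

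A wider set of induced genes was defined in other libraries than the 6 compared. It holds the 437 genes (3.69% of 11841) that were called higher than Control at both MCE1 and MCE2 by 1 log2 unit or more. Of these, 422 could be tested between Day6 and Day4. At Day6 119 were higher (28.2%), 116 were lower (27.5%) and 187 were not called, with a median of -0.06, so the induced genes as a set split in both directions. Beside all genes tested (15.3% higher and 12% lower), both shares were larger. The number of induced genes that stood at least 1 log2 unit above Control was 349 at Day4 (79.9%), 332 at Day6 (76.0%) and 304 at Day8 (69.6%). The 116 that were lower at Day6 stood a median of 1.82 log2 units above Control at MCE1, 2.19 at MCE2, 2.16 at Day4, 1.48 at Day6 and 0.99 at Day8. The 119 that were higher stood at 1.61, 2.29, 2.38, 3.23 and 3.40 in the same groups. The 2 sets were chosen by their Day6 and Day4 values, so the step between those groups is a description, while the MCE1, MCE2 and Day8 values were not used to split them. The Control values enter both the definition and these differences.

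**Figure D3:**
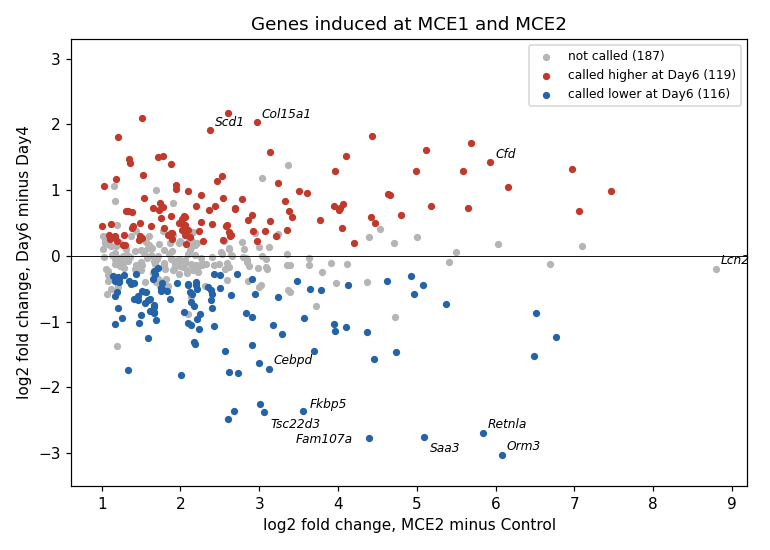
The 422 induced genes tested, with the log2 fold change of MCE2 minus Control on the x axis and of Day6 minus Day4 on the y axis. The 119 red genes were called higher at Day6, the 116 blue genes lower and the 187 grey genes were not called; the strongly induced genes Lcn2, Cfd and Orm3 lie near 0, above it and below it.

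With unnamed gene models left out, the 4 induced genes that rose furthest at Day6 were Ces1f, Col15a1, Scd1 and Rasd1. Ces1f (chromosome 8, 95780135 to 95803635), a carboxylesterase, read 139, 137 and 138 TPM at Day6 against 26.3, 32.9 and 30.1 TPM at Day4 (2.18, SE 0.12, adjusted p = 3.4e-09). Col15a1 (chromosome 4, 47220884 to 47326037), a collagen of the basement membrane zone, read 94.9, 104 and 90.2 TPM at Day6 against 21.5, 21.9 and 25.0 TPM at Day4 (2.03, SE 0.11, adjusted p = 2.0e-09). Rasd1, a small GTPase known as a dexamethasone-induced Ras protein, read 32.4, 31.7 and 29.1 TPM at Day6 against 7.41, 8.65 and 8.05 TPM at Day4 (1.83, SE 0.11, adjusted p = 6.2e-09). Rasd1 averaged 8.25 TPM at MCE1 and 21.4 TPM at MCE2. Scd1 is described with fat synthesis below.

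The promoters of 2 genes, 1 of the 6 that fell furthest and 1 of the 6 that rose furthest, were picked because both hold the same short motif, the half-site of the cAMP response element. Sequences are the 250 bases before the RefSeq start site in the GRCm38.p6 build, 5′ to 3′ on the strand of the gene, for Fam107a (chr14:8317608-8317857, minus strand, the first of 3 start sites in the table; the other two had no match) and for Pck1 (chr2:173152823-173153072, plus strand). Capitals mark TGACG or its reverse complement, whose first base lies 46 bases before the start in Fam107a and 90 bases before it in Pck1.
Fam107a: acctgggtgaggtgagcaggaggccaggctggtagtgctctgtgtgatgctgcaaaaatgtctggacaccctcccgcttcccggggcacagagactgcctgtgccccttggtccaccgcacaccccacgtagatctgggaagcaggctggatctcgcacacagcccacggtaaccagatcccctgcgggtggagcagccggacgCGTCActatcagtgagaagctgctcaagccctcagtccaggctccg
Pck1: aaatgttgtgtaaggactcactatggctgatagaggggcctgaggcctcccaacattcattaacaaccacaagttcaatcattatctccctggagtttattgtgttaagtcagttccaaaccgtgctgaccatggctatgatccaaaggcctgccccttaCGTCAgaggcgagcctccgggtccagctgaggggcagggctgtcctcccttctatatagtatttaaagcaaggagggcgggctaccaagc
Of the 12 genes that rose or fell furthest 10 had a promoter in the table, and 4 of these matched TGACG, the sterol regulatory element TCACNCCAC or the whole glucocorticoid receptor site. A pooled share of these motifs over all tested genes was not computed, and genes with several start sites had more windows to match.
Searched on both strands of such windows, TGACG was found for 27.7% of the genes called higher, 28.8% of those called lower and 27.7% of the 83 induced genes called lower that had a promoter in the table, beside 31.1% of all 9281 tested genes that had one. The glucocorticoid receptor half-site AGAACA was found for 3 of the 13 glucocorticoid list members called lower (23.1%), beside 12.2% of tested genes. The whole site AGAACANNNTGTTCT, which contains that half-site, was found for 0 tested genes. The sterol regulatory element was found for 0 of the 11 cholesterol list members called higher that had a promoter, beside 1.14% of tested genes. Over all 32851 promoters of the table the shares were 17.8% for TGACG and 16.1% for AGAACA. A match describes these letters in this window and is not a measured binding site.

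Among the adipogenic transcription factors Cebpd and Klf5 fell and Cebpa and Klf15 rose. Of 32 tested 12 were higher at Day6 (37.5%, background 15.3%), 3 were lower (9.38%, background 12%) and 17 were not called (median 0.27). Cebpd (chromosome 16, 15887379 to 15889638), the early factor C/EBP delta, read 62.4, 68.0 and 76.1 TPM at Day6 against 235, 222 and 225 TPM at Day4 (-1.72, SE 0.07, adjusted p = 2.5e-10). It was an induced gene, with means of 23.2 TPM in Control and 210 TPM at MCE2. Klf5, which acts early in adipogenesis, read 3.49, 4.90 and 2.99 TPM at Day6 against 13.5, 12.2 and 16.2 TPM at Day4 (-1.65, SE 0.13, adjusted p = 2.1e-07). Cebpb, the partner of Cebpd in early induction, overlapped between the groups, with 547, 396 and 495 TPM at Day6 against 473, 663 and 537 TPM at Day4 (-0.22, SE 0.16, adjusted p = 0.35).

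Cebpa (chromosome 7, 35904312 to 35906947), which maintains the mature fat cell, read 340, 389 and 324 TPM at Day6 against 188, 161 and 198 TPM at Day4 (0.94, SE 0.15, adjusted p = 0.00028). Klf15, a factor that acts on Slc2a4, averaged 51.5 TPM at Day6 against 19.7 TPM at Day4 (1.34, SE 0.15). Ddit3 (CHOP), an inhibitor of C/EBP factors, rose too and is described with the stress genes. Pparg, the master nuclear receptor of fat cells, read 31.4, 49.2 and 174 TPM at Day6 against 37.3, 40.0 and 19.5 TPM at Day4. Day6 replicate 3 stood far above the other libraries, the ranges overlapped and no call was made (1.05, SE 0.62, adjusted p = 0.24).

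Among genes of lipid droplets and fat breakdown the receptor that starts lipolysis had the largest change. Of 26 listed 18 were tested: 10 were higher (55.6%, background 15.3%), 1 was lower (5.56%, background 12%) and 7 were not called (median 0.58). Adrb3 (chromosome 8, 28336248 to 28340060), the beta-3 adrenergic receptor, read 27.7, 24.1 and 24.2 TPM at Day6 against 1.56, 1.80 and 2.45 TPM at Day4 (3.17, SE 0.14, adjusted p = 5.3e-10). The ratio of its means was 13.1. It was listed at 0 in all Control, MCE1 and MCE2 libraries and read 106, 74.9 and 71.9 TPM at Day8. Pnpla3, a lipid droplet hydrolase, read 16.5, 15.9 and 13.9 TPM at Day6 against 3.15, 2.36 and 2.46 TPM at Day4 (2.17, SE 0.12). Aqp7, the channel through which glycerol leaves, averaged 22.9 TPM at Day6 against 8.43 TPM at Day4 (1.34, SE 0.09), and G0s2, an inhibitor of the lipase ATGL, averaged 1137 TPM at Day6 against 450.4 TPM at Day4 (1.33, SE 0.10). The droplet coat protein Plin1 (chromosome 7, 86866050 to 86877662) read 452, 494 and 476 TPM at Day6 against 218, 223 and 245 TPM at Day4 (1.05, SE 0.18, adjusted p = 0.00052). Cidec, which enlarges droplets, read 1369, 1642 and 1472 TPM at Day6 against 1506, 1290 and 1242 TPM at Day4, with overlap and no call (0.15, SE 0.16, adjusted p = 0.53).

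Most tested genes for factors that fat cells secrete were higher. Of 15 tested 13 were higher at Day6 (86.7%, background 15.3%), 1 was lower (6.67%, background 12%) and 1 was not called (median 0.99). Adipoq (chromosome 16, 23146609 to 23158041), the hormone adiponectin, read 3267, 3123 and 3112 TPM at Day6 against 1304, 1419 and 1369 TPM at Day4 (1.22, SE 0.15, adjusted p = 2.7e-05). Cfd, the complement factor adipsin, read 2141, 1809 and 2168 TPM at Day6 against 724, 798 and 753 TPM at Day4 (1.42, SE 0.12). For both, all Day6 libraries stood above all Day4 libraries. Apoc1, an apolipoprotein, averaged 175 TPM at Day6 against 53.4 TPM at Day4 (1.70, SE 0.20), and Rarres2, the chemoattractant chemerin, averaged 781 TPM at Day6 against 273 TPM at Day4 (1.51, SE 0.16). Retn (resistin) read 1736, 1653 and 1672 TPM at Day6 against 832, 882 and 840 TPM at Day4 (0.99, SE 0.11). Lep, the satiety hormone leptin, was near the limit of the scale at 1.85, 1.15 and 1.26 TPM at Day6 against 0, 0.199 and 0.0957 TPM at Day4 (1.13, SE 0.15, adjusted p = 3.2e-05). Lep met the filter of 1 TPM in 3 libraries only through Day6, so among the 13 its direction was fixed by the filter.

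Among fatty acid uptake genes Fabp4 and Lpl, which have very high levels, rose. Of 17 tested 7 were higher (41.2%, background 15.3%), 1 was lower (5.88%, background 12%) and 9 were not called (median 0.14). Fabp4 (chromosome 3, 10204343 to 10208616), the fatty acid carrier aP2, read 20216, 17897 and 19604 TPM at Day6 against 11806, 11973 and 11217 TPM at Day4 (0.72, SE 0.09, adjusted p = 1.1e-05). It was the top gene of every one of these libraries, so quantile normalization, which gives the top gene 1 common value, sets its change to 0. Lpl (chromosome 8, 71404454 to 71430831), which frees fatty acids from lipoproteins, read 5739, 5931 and 5438 TPM at Day6 against 3137, 3423 and 3322 TPM at Day4 (0.79, SE 0.07, adjusted p = 4.2e-07). Cd36, a fatty acid transporter, rose by 0.75 (SE 0.11) and the acyl-CoA synthetase Acsl3 by 0.89 (SE 0.14). The call for Acsl4, another synthetase (0.90, SE 0.27, adjusted p = 0.023), ended when any 1 of Day6 replicates 1 and 3 and Day4 replicates 1 and 3 was left out.

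**Figure D4:**
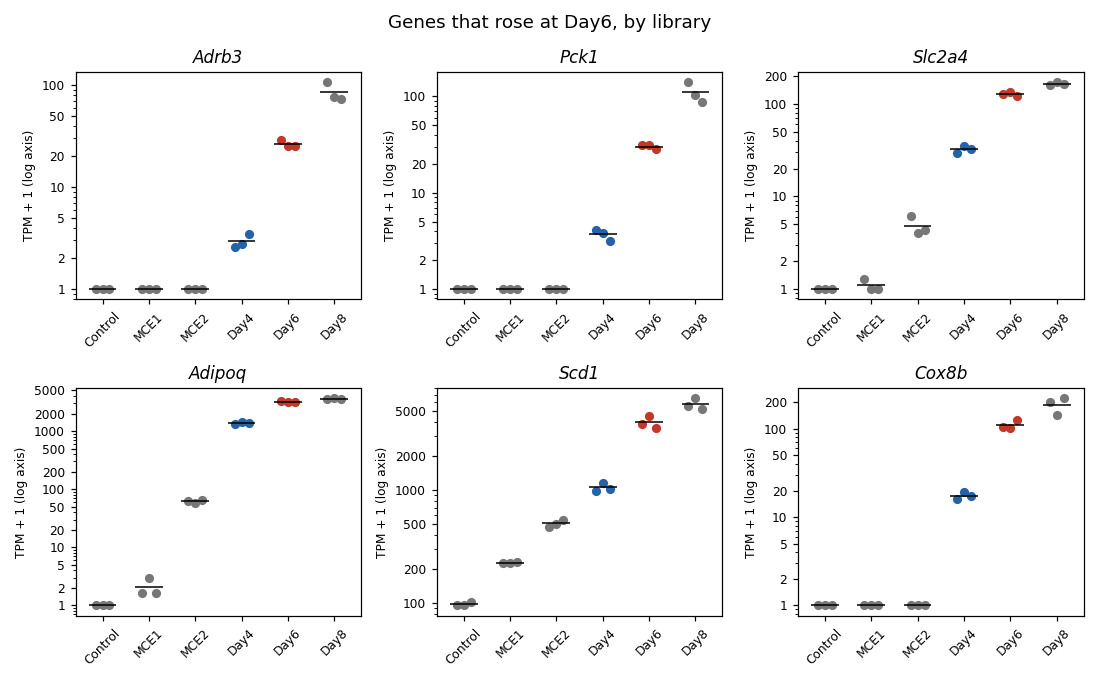
TPM + 1 on a log axis for 6 genes that rose at Day6, with the libraries grouped from Control on the left to Day8 on the right; each point is a library and each bar the mean of the 3. Day6 libraries (red) lie above Day4 libraries (blue) in all 6 genes, from 27.7, 24.1 and 24.2 TPM against 1.56, 1.80 and 2.45 TPM for Adrb3 to 3267, 3123 and 3112 TPM against 1304, 1419 and 1369 TPM for Adipoq.

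Of 31 fatty acid and triglyceride synthesis genes tested 23 were higher, 1 was lower and 7 were not called (median 0.50), which is 74.2% higher beside 15.3% over all genes tested. Pck1 (chromosome 2, 172978574 to 172984775), whose enzyme feeds glycerol synthesis in fat cells, read 30.0, 29.8 and 27.1 TPM at Day6 against 3.08, 2.84 and 2.19 TPM at Day4 (3.02, SE 0.14, adjusted p = 8.0e-10). It was listed at 0 in all Control, MCE1 and MCE2 libraries and read 139, 101 and 86.6 TPM at Day8. Scd1 (chromosome 19, 44468940 to 44482199), the desaturase that makes oleate, read 3869, 4531 and 3570 TPM at Day6 against 990, 1162 and 1022 TPM at Day4 (1.91, SE 0.09, adjusted p = 8.1e-10). The related Scd3 rose by 1.33 (SE 0.15), and reads that fit more than 1 Scd gene make the split between them uncertain. Fasn, fatty acid synthase, read 301, 463 and 326 TPM at Day6 against 235, 260 and 266 TPM at Day4 (0.49, SE 0.13, adjusted p = 0.0082), a call that ended in a fit on the 6 libraries alone. Dgat2, which makes triglyceride, read 561, 633 and 554 TPM at Day6 against 516, 563 and 553 TPM at Day4 and was not called (0.10, SE 0.07, adjusted p = 0.32).

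Of 23 cholesterol synthesis and uptake genes tested 16 were higher (69.6%) and 1 was lower (4.35%), beside backgrounds of 15.3% and 12%. The other 6 were not called, and the median of the list was 0.44. Sqle (chromosome 15, 59146647 to 59162748), squalene epoxidase, read 259, 255 and 253 TPM at Day6 against 118, 117 and 120 TPM at Day4 (1.10, SE 0.05, adjusted p = 8.0e-10). Sc5d and Hsd17b7, which act in the later steps, rose by 1.14 (SE 0.12) and 0.86 (SE 0.09). Cyp51, the lanosterol demethylase of the same pathway, went the other way, with 93.8, 102 and 97.6 TPM at Day6 against 165, 172 and 172 TPM at Day4 (-0.79, SE 0.05, adjusted p = 3.2e-08). Hmgcs1, the synthase at the head of the pathway, is listed at 0 in all 18 libraries, at a position on an unplaced part of chromosome 13, so a value of 0 in these tables can be a failed estimate.

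Of 32 genes of insulin signalling, glucose transport and glycolysis tested 22 were higher (68.8%, background 15.3%). A further 2 were lower (6.25%, background 12%) and 8 were not called, and the median of the list was 0.64. Slc2a4, the insulin-responsive transporter GLUT4, read 128, 133 and 120 TPM at Day6 against 28.2, 34.4 and 31.8 TPM at Day4 (1.98, SE 0.14, adjusted p = 5.6e-08). It averaged 3.85 TPM at MCE2. Of its 15 genes for glycolytic enzymes and lactate dehydrogenase, a split of the list made after the values were seen, 13 were higher, 0 were lower, 1 was not called and 1 was not tested, with fold changes of 0.28 to 1.15. Gapdh (chromosome 6, 125111870 to 125115791), a glycolytic enzyme often used as a loading control, read 510, 453 and 470 TPM at Day6 against 212, 232 and 201 TPM at Day4 (1.15, SE 0.10, adjusted p = 5.2e-07). Pdk1, a pyruvate dehydrogenase kinase, averaged 138 TPM at Day6 against 60.6 TPM at Day4 (1.18, SE 0.09), while its relative Pdk4 fell, as given above.

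Of 49 mitochondrial oxidation genes tested 35 were higher (71.4%, background 15.3%) and 3 were lower (6.12%, background 12%). The other 11 were not called, and the median of the list was 0.30. Cs (chromosome 10, 127774783 to 127799538), citrate synthase, read 484, 538 and 467 TPM at Day6 against 300.0, 321 and 319.6 TPM at Day4 (0.66, SE 0.05, adjusted p = 2.2e-07). Cycs, cytochrome c, rose by 0.56 (SE 0.06) and Ogdh, a citrate cycle dehydrogenase, by 0.77 (SE 0.16), a call that ended with the replicate number as a block on the 6 libraries. Idh2, the NADP-linked isocitrate dehydrogenase, fell to 330.5, 344 and 346 TPM at Day6, against 501, 511 and 526 TPM at Day4 (-0.59, SE 0.04). Of 22 genes of branched-chain amino acid breakdown 16 were higher (72.7%, background 15.3%), 1 was lower (4.55%) and 5 were not called (median 0.34). Dbt, a subunit of the branched-chain dehydrogenase, led with 94.2, 92.7 and 90.2 TPM at Day6 against 44.7, 42.1 and 42.5 TPM at Day4 (1.08, SE 0.13). Of 30 peroxisomal genes 10 were higher (33.3%, background 15.3%), 1 was lower (3.33%, background 12%) and 19 were not called (median 0.12). Abcd2, a fatty acyl-CoA transporter of the peroxisome, had the largest change among them (1.58, SE 0.14).

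Some genes known from brown fat rose, while Ucp1, the defining uncoupling protein, is listed at 0 in all 18 libraries. Only 7 of 24 brown and beige fat genes were tested: 4 were higher (57.1%, background 15.3%) and 3 were not called. Cox8b (chromosome 7, 148084841 to 148086345), a cytochrome oxidase subunit of muscle and brown fat, read 103, 100 and 126 TPM at Day6 against 14.9, 18.5 and 16.2 TPM at Day4 (2.66, SE 0.14, adjusted p = 2.1e-09). Cox7a1, another such subunit, read 116, 62.5 and 101 TPM at Day6 against 20.2, 20.5 and 14.3 TPM at Day4 (2.26, SE 0.34), a call lost with a pseudocount of 0.1. Ppargc1a, the coactivator of mitochondrial genes, averaged 7.78 TPM at Day6 against 3.72 TPM at Day4 (0.91, SE 0.15). Of the 24, 8 members, among them Ucp1, Prdm16 and Zic1, are listed at 0 in all Day6 libraries.

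**Figure D5:**
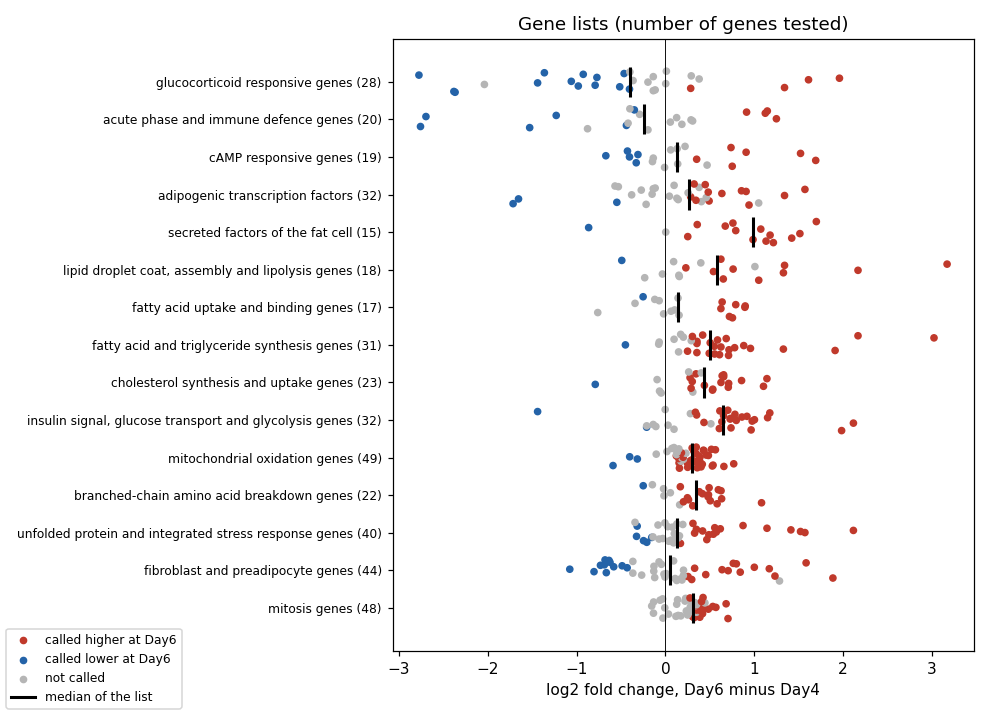
Log2 fold change, Day6 minus Day4, of the tested members of 15 gene lists; each point is a gene, red if called higher, blue if called lower and grey if not called, and the black bar is the list's median. The medians run from -0.40 for glucocorticoid responsive genes to 0.99 for secreted factors of the fat cell.

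Several stress response genes rose, led by Trib3 and Ddit3. Of 40 genes of the unfolded protein and integrated stress responses 17 were higher (42.5%, background 15.3%). A further 5 were lower (12.5%, near the background of 12%) and 18 were not called, and the median of the list was 0.14. Trib3 (chromosome 2, 152163161 to 152169796), a pseudokinase that binds Akt, read 110, 104 and 127 TPM at Day6 against 25.6, 23.9 and 26.6 TPM at Day4 (2.12, SE 0.11, adjusted p = 1.7e-09). Ddit3 (CHOP) read 321, 263 and 290 TPM at Day6 against 102, 99.1 and 90.2 TPM at Day4 (1.57, SE 0.09, adjusted p = 3.5e-09) and 565, 654 and 628 TPM at Day8. Chac1, which degrades glutathione, averaged 41.1 TPM at Day6 against 14.8 TPM at Day4 (1.41, SE 0.09), and Atf3, a stress-induced factor, 4.54 TPM at Day6 against 0.951 TPM at Day4 (1.52, SE 0.18). With a Day4 mean under 1 TPM, Atf3 met the filter of 1 TPM in 3 libraries only with Day6 libraries. Its direction was thus favoured by the filter, here and in the cAMP responsive list. Of the chaperones of the endoplasmic reticulum, Hspa5 rose by 0.17 and Calr fell by 0.25, both picked after their values were seen.

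Fibroblast and preadipocyte genes had no common direction. Of 44 tested 14 were higher (31.8%, background 15.3%), 11 were lower (25.0%, background 12%) and 19 were not called (median 0.05). Acta2 (chromosome 19, 34314826 to 34329863), the actin of contractile fibroblasts, read 23.5, 15.6 and 21.6 TPM at Day6 against 5.30, 4.80 and 3.97 TPM at Day4 (1.89, SE 0.15, adjusted p = 1.7e-07). Both were far under its Control mean of 996 TPM. Lum, a proteoglycan of the matrix, averaged 102 TPM at Day6 against 33.3 TPM at Day4 (1.58, SE 0.12), and Thbs1 (thrombospondin) 32.3 TPM at Day6 against 14.1 TPM at Day4 (1.17, SE 0.21). Col1a1, the main fibrillar collagen, read 1381, 1852 and 1589 TPM at Day6 against 1400, 1446 and 1540 TPM at Day4 and was not called (0.13, SE 0.14). Dlk1, which marks preadipocytes, read 11.2, 11.7 and 9.86 TPM at Day6 against 0, 9.09 and 10.5 TPM at Day4, where the library listed at 0 sets the difference (1.28, SE 0.77, adjusted p = 0.24). Of 18 basement membrane genes 8 were higher (44.4%, background 15.3%), 0 were lower and 10 were not called, with Col15a1, described above, first.

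Of 48 mitosis genes 20 were higher, 0 were lower and 28 were not called (median 0.31), and of 48 DNA replication genes 12 were higher, 0 were lower and 36 were not called (median 0.15). The shares called higher were 41.7% and 25.0%, beside 15.3% over all genes tested, and the calls of Spc24, Pole, Pole2 and Tk1 were lost in a fit on the 6 libraries alone. Mki67, the proliferation marker Ki-67, read 14.3, 17.6 and 13.6 TPM at Day6 against 9.22, 7.56 and 9.91 TPM at Day4 (0.70, SE 0.14, adjusted p = 0.0012), with a Control mean of 124 TPM. Its call ended with the replicate number as a block on the 6 libraries. Anln (anillin), which acts in the contractile ring, rose by 0.68 (SE 0.09) and Gmnn (geminin), which stops re-licensing of origins, by 0.67 (SE 0.14). Top2a, a topoisomerase of dividing cells, read 38.0, 43.7 and 40.2 TPM at Day6 against 42.5, 40.8 and 40.8 TPM at Day4 and was not called (-0.03, SE 0.06, adjusted p = 0.79).

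Among the 6 genes that rose furthest by the same rule, 4 belong to no list above. Ghrh, known as the growth hormone releasing hormone, read 110, 134 and 108 TPM at Day6 against 21.8, 8.16 and 19.6 TPM at Day4 (2.86, SE 0.29, adjusted p = 2.7e-06). Its recorded position differed between libraries, as it did for Tsc22d3, Slc2a4, Retn, Cd36, Cidec, Crem and Zbtb16. Car2, a carbonic anhydrase, read 30.7, 24.4 and 36.1 TPM at Day6 against 0, 3.05 and 7.32 TPM at Day4 (3.26, SE 0.59, adjusted p = 0.00074). The Day4 library listed at 0 sets part of that size: without Day4 replicate 1 the fold change was 2.42 and the call was kept, but the value lies under that of Cox8b. Pla2g2e, a secreted phospholipase, read 11.3, 13.6 and 15.7 TPM at Day6 against 1.10, 2.03 and 0.603 TPM at Day4 (2.74, SE 0.20). Cyp2ab1, of the cytochrome P450 family, read 11.6, 11.8 and 13.0 TPM at Day6 against 1.01, 1.03 and 0.583 TPM at Day4 (2.82, SE 0.11). Groups that do not overlap were a condition of that rule. Car2, Pla2g2e and Cyp2ab1 met the filter of 1 TPM in 3 libraries only with Day6 libraries, so the filter favoured their direction.

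Markers of other cell types were low. Of 16 macrophage and leukocyte markers 3 averaged 1 TPM or more in each group, the summed level was 8.83 to 11.7 TPM at Day6 and 9.24 to 14.2 TPM at Day4, and Adgre1, Itgam and Ptprc were listed at 0 in all 6 libraries. Of 13 endothelial markers 1 reached that mean (1.97 to 2.50 TPM summed at Day6 and 2.13 to 2.23 TPM at Day4), with Cdh5 and Kdr listed at 0. Of 14 skeletal muscle markers 4 did (28.7 to 35.0 TPM at Day6 and 24.6 to 25.3 TPM at Day4), with Myod1 and Myog listed at 0, and Des, an intermediate filament gene, rose by 0.70 (SE 0.15). Of 13 bone and cartilage markers 3 did at Day6 and 4 at Day4 (11.4 to 12.7 TPM at Day6 and 10.5 to 12.9 TPM at Day4).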

How the data were processed

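Polyadenylated RNA of 3T3-L1 cells was sequenced in 18 libraries, with a kit that does not mark strand per the labels' protocols, so a gene and an antisense partner cannot be told apart. The authors deposited TPM per gene, 1 table per library, with positions. Per the submitters' processing notes, FastQC, cutadapt, HISAT2, StringTie and the mm9 build were used. Their versions, the annotation and read depth are not given in the sources used here, and no interval for counting error could be set. Listed TPM summed to 869497 to 880273 per library.

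Groups came from the sample titles. The test was limma 3.58.1 (R 4.3.3) on log2(TPM + 1) with 1 mean per group over the 18 libraries, moderated variances (trend and robust, 12 residual degrees of freedom) and 2-sided tests, for the 11844 genes that had 1 TPM or more in 3 or more of the 6 libraries compared. Values were not rescaled. Induced genes came from a separate fit on the 9 Control, MCE1 and MCE2 libraries. Simulated data with known changes were used to check the fit. Python 3.11.15 (numpy 2.4.6, pandas 2.3.3, matplotlib 3.10.9) made the tables and figures.

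The members, gene lists, alternatives and naming rule were chosen with earlier results of these data known. Genes named were a panel of 30, 6 called genes at either end of the fold changes, up to 4 called members with the largest changes per list, and of the induced genes the 6 called lower and the 4 called higher with the largest changes. The second and the last part required at least 10 TPM in the higher group, ranges that do not overlap and no provisional name. 1 gene of the panel is not reported here. No set test was run. Promoters are RefSeq's (GRCm38.p6), matched by symbol for 9281 of the 11844 genes.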

Additional observations from a re-analysis of the deposited data

How the results depend on the processing

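The counts of called genes stayed within 1.5 times of 1810 higher and 1427 lower under another pseudocount (0.1), other filters, median-ratio scaling (1963 and 1411), quantile normalization (1791 and 1880), a fit on the 6 libraries alone (1435 and 1092) and array weights. A fold change of at least 1 log2 unit as well left 247 higher and 113 lower genes, and 29 higher and 37 lower induced genes. Induction by at least 2 log2 units left 36 higher and 48 lower. Leaving out 1 library gave 1459 to 1627 higher and 1089 to 1441 lower genes, and 100 to 116 higher and 97 to 126 lower induced genes. No pairing by replicate number was seen (r of same-numbered deviations -0.020, -0.072 and 0.014), though deviations from means of 3 libraries cannot exclude it. With the replicate number as a block the counts were 1809 and 1400, and 1049 and 799 when the block was fitted on the 6 libraries alone. Of 105 named genes called, 90 kept the call in every alternative but the fold threshold, and 0 reversed. Besides those given in the report, calls ended for Ces1d, Comp and Myl9 with a pseudocount of 0.1, for Mki67 and Ogdh with the block on the 6 libraries, for Pole, Pole2 and Tk1 in both fits on those 6, and for Alpl, Comp and Spc24 in these fits and when single libraries were left out. The cause was not tested. Spread between the 3 libraries of a group, not counting error, limits every value. The main fit pools that spread over the 6 groups of the series.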

Other observations

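Of 15 circadian clock genes tested 6 were higher at Day6 (40.0%, background 15.3%), 0 were lower and 9 were not called (median 0.36). Dbp, an output factor of the clock, read 42.2, 33.4 and 45.1 TPM at Day6 against 21.9, 22.2 and 20.9 TPM at Day4 (log2 fold change 0.86, SE 0.11), and 114, 107 and 109 TPM at Day8. The repressor Nr1d1 averaged 23.5 TPM at Day6 against 12.7 TPM at Day4 (0.83, SE 0.13), and Bhlhe40 averaged 89.6 TPM at Day6 against 50.4 TPM at Day4 (0.82, SE 0.07). The labels used here give no hour of harvest.

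Of 25 interferon responsive and antigen presentation genes 11 were higher at Day6 (44.0%, background 15.3%) and 1 was lower (4.0%, background 12%). The other 13 were not called, and the median of the list was 0.23. H2-K1, a class I histocompatibility gene, read 286, 254 and 280.2 TPM at Day6 against 135, 169 and 138 TPM at Day4 (0.89, SE 0.08). Isg15, a ubiquitin-like interferon target, had 10.6, 10.4 and 9.28 TPM at Day6 against 4.95, 5.17 and 5.29 TPM at Day4 (0.85, SE 0.21).

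Of 30 antioxidant and glutathione genes 12 were higher (40.0%, background 15.3%), 8 were lower (26.7%, background 12%) and 10 were not called (median 0.12). Hmox1, heme oxygenase, read 299, 283 and 311 TPM at Day6 against 133, 120.2 and 125 TPM at Day4 (1.24, SE 0.09), and 979, 1222 and 1088 TPM at Day8. Of 17 housekeeping genes 5 were higher and 5 were lower (29.4% each, background 15.3% and 12%), and 7 were not called (median 0.04). The ribosomal Rplp0 read 3385, 3117 and 3325 TPM at Day6 against 4580, 4651 and 4422 TPM at Day4 (-0.47, SE 0.05), opposite in direction to Gapdh.

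Of the 921 genes that were lower than Control at both MCE1 and MCE2 by 1 log2 unit or more (7.78% of 11841), 759 were tested between Day6 and Day4: 193 were higher, 95 were lower and 471 were not called (median 0.09). That is 25.4% higher and 12.5% lower, beside 15.3% and 12% over all genes tested, so the lower share is near the background.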
